A study of Mus musculus with 4 samples.

Results

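Igf2bp1, Igf2bp2, Igf2bp3, Lin28a, Lin28b, Hmga1 and Hmga2 are grouped here as oncofetal genes. Typical genes of this class are active in the embryo, mostly silent in adult tissue and often active again in tumours. Not every one of the 7 need follow this pattern, and their expression was not measured. The 7 genes were taken by the gene names on the arrays, where Lin28a is called Lin28. All 7 were among the 17649 gene names with enough neighbouring probes. The set was picked from Ring1B values, since the wild-type window of Igf2bp3 was among the 10 highest (rank 8), so its levels are a description with no test. Sall3 at rank 10 and Slc32a1 at rank 11, just inside and just outside, both stood at 5.75 on the log2 scale explained below.

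Ring1B is the subunit that ubiquitinates histone H2A in PRC1, a Polycomb complex that represses developmental genes. It was measured by chromatin immunoprecipitation and hybridisation to 2-colour promoter arrays, with the Ring1B immunoprecipitate in Cy5 and input DNA in Cy3. The cells were C57BL/6 mouse embryonic fibroblasts of embryonic day 12.5 at passage 2, either wild type or Phc2 L307R/L307R. Phc2 is a PRC1 subunit with a polymerising SAM domain, and the comparison asks where Ring1B lies when both copies carry the L307R change.

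The 4 arrays were of 2 designs with 0 probes in common and each design was used once for each genotype, so a gene has a single measurement per genotype and no p-value is given. Design 1 carried Igf2bp3 and Lin28a, and design 2 the other 5 genes. The labels do not say how many embryos or cultures stand behind an array. Scan day and genotype cannot be told apart, because each genotype was scanned on a day of its own. The share of probes with input well above background was 85.7% (design 1) and 86.7% (design 2) for wild type, against 75.0% and 76.3% for Phc2 L307R. The arrays measure DNA, so neither the fibroblast identity nor the expression of these genes could be checked.

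The 3 Igf2bp proteins bind mRNAs, among them that of the growth factor Igf2, and steer their stability, transport and translation. Lin28a and Lin28b block the maturation of let-7 microRNAs, and let-7 in turn represses the mRNAs of Hmga2, Lin28b and the Igf2bp genes. Hmga1 and Hmga2 are small chromatin proteins that bind the minor groove of AT-rich DNA. PRC1 is known to gather at unmethylated CpG-rich promoters of genes that are not transcribed, which is why the start regions are shown first.

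RefSeq promoter sequences (build GRCm38.p6) were at hand for 6 of the 7 genes, all but Igf2bp1. The 250 bases before the start of 3 genes are printed 5′ to 3′ with each CG dinucleotide in capitals. These genes differ in Ring1B and run from many to few CG, but do not include the genes with least Ring1B. Igf2bp3 (chr6:49214955-49215204, minus strand) had the highest level, Lin28b (chr10:45470202-45470451, minus strand) the longest domain, and Igf2bp2 (chr16:22163300-22163549, minus strand) a lower level. Hmga1 and Lin28a, not printed, stood lower still. The sources used here do not give the genome build of the array positions printed further on, so the sequences cannot be laid on the probes, and exon, intron or UTR cannot be assigned to a probe.
Igf2bp3: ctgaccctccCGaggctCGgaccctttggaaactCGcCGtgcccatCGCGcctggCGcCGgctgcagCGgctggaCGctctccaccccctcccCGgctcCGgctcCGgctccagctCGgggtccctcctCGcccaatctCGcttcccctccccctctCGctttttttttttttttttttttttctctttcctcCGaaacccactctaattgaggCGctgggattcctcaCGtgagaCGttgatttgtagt
Lin28b: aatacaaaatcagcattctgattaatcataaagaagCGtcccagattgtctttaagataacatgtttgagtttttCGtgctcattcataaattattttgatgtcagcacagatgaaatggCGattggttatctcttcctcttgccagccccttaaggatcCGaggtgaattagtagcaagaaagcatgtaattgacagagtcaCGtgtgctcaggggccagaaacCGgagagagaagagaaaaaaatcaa
Igf2bp2: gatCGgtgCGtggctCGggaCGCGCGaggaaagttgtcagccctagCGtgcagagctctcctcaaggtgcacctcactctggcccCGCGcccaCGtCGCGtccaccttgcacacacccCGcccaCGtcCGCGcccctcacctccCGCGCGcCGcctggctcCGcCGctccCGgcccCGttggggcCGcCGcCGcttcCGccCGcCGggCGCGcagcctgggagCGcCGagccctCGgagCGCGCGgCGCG

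The motif searched was CG, which reads the same on both strands. Igf2bp2 held 40 CG in these 250 bases, a count that 1.31% of 32851 RefSeq promoter entries reached. Hmga1 held 34 and 35 at its 2 listed starts, reached by 3.53% and 2.97%. Igf2bp3 held 21 (16.3% of entries), Hmga2 8 (43.0%), Lin28a 7 (46.3%) and Lin28b 6 (50.4%), beside a median of 6 over all entries. The genes richest in CG at the RefSeq start, Igf2bp2 and Hmga1, were thus not those with most Ring1B. Across 12823 measured promoters with an entry, the CG count and the wild-type window had a Spearman rho of 0.49, given as a description since promoters share base composition and arrays.

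Ring1B levels are log2 ratios of immunoprecipitate over input, centred on the median of each array, and a gene's level is the mean of its window, the 3 neighbouring probes with the highest mean over both genotypes. The error is the SD over those 3 probes, which is not an error between cultures. A window of at least 1 was called bound. In wild type 6 of the 7 genes were bound, where 45.4% of all promoters were, and in Phc2 L307R again 6, where 39.3% were. Lin28a was the exception in both. The measured ratio was at least 3 at Igf2bp3, Igf2bp1 and Lin28b, 3 of 7 genes, in each genotype, although at Lin28b dim input leaves a bound of only 2.83 in Phc2 L307R. It was at least 3 at 1.58% of all promoters in wild type and 1.44% in Phc2 L307R; Igf2bp3 had been chosen for such a level.

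Igf2bp3 carried one of the highest Ring1B levels on the arrays. Its window on chromosome 6 (49148824 to 49149212) had a mean of 5.83 (SD 0.45) in wild type, 56.7 times the array median and rank 8 of 17649. In Phc2 L307R the measured mean was 6.46 (SD 0.31). Input was not well above background at 1 of its probes there, so the level is a bound of 6.39 or more, and the window of probes well above background stood at 6.13. In order of position the probes read 6.18, 5.98 and 5.32 for wild type, against 6.38, 6.20 and 6.80 in Phc2 L307R. All 3 were thus higher in Phc2 L307R, but 2 of them by 0.20 and 0.23 and the last by 1.48.

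Igf2bp1 came next, with a window on chromosome 11 (95827140 to 95827494) at 5.16 (SD 0.31) in wild type and 4.43 (SD 0.61) in Phc2 L307R, ranks 30 and 54. Its probes read 5.46, 4.84 and 5.18 for wild type, against 5.04, 3.83 and 4.44 in Phc2 L307R. Each probe was lower in Phc2 L307R. The window was the last 3 probes named for the gene, so Ring1B beyond it was not analysed here.

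Lin28b had a window on chromosome 10 (45162750 to 45163153) at 3.67 (SD 0.63) in wild type and 3.93 (SD 1.21) in Phc2 L307R. The probes read 3.38, 3.24 and 4.39 for wild type, against 5.32, 3.25 and 3.21 in Phc2 L307R, so they differed by 1.94, 0.01 and -1.18 and did not move one way. Input was well above background at 2 of these 3 probes in wild type and at 0 of 3 in Phc2 L307R, which makes the ratio a bound. With each input signal raised to the lowest one well above background on its array, the window stood at 3.16 or more in wild type and at 2.83 or more in Phc2 L307R. The sign of the difference at Lin28b turned with the processing. It went from 0.25 as measured to -0.68 with only probes well above background and to -0.91 after normexp background correction. Windows were chosen anew in each setting, and the one behind -0.68 shared no probe with the reported window. Place and handling of dim probes thus changed together there.

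The remaining 4 genes held much less. Hmga2 stood at 2.21 (SD 0.48) in wild type and 2.57 (SD 0.41) in Phc2 L307R on chromosome 10 (119877500 to 119877840), and Igf2bp2 at 1.84 (SD 0.31) and 2.14 (SD 0.50) on chromosome 16 (22076084 to 22076453). Hmga1 stood at 1.33 (SD 0.89) and 1.67 (SD 0.80) on chromosome 17 (27283855 to 27284382). Lin28a had 0.62 (SD 0.20) and 0.92 (SD 0.64) on chromosome 4 (133292517 to 133292976), with 37.9% of promoters below it in wild type. Dim input makes the Lin28a levels bounds, of 0.52 or more in wild type and 0.38 or more in Phc2 L307R. Both the Igf2bp and the Lin28 family thus held members far apart in level, Igf2bp2 far below its relatives and Lin28a far below Lin28b.

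In wild type, neighbours in the order Igf2bp3, Igf2bp1, Lin28b and Hmga2 were 0.67, 1.49 and 1.46 apart, more than the combined SD of their windows (0.54, 0.70 and 0.79). Hmga2, Igf2bp2, Hmga1 and Lin28a followed with gaps of 0.37, 0.51 and 0.71, which lay within the combined SD (0.57, 0.94 and 0.91). The order was the same in Phc2 L307R, where the gap between Igf2bp1 and Lin28b (0.51) lay within the combined SD of 1.35. The gaps from Hmga2 down to Lin28a (0.43, 0.47 and 0.75) also lay within it there (0.65, 0.95 and 1.03). After normexp background correction Igf2bp2 (1.79) stood above Hmga2 (1.29) in Phc2 L307R. Igf2bp3 and Lin28a were on another array than the others.

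**Figure D1:**
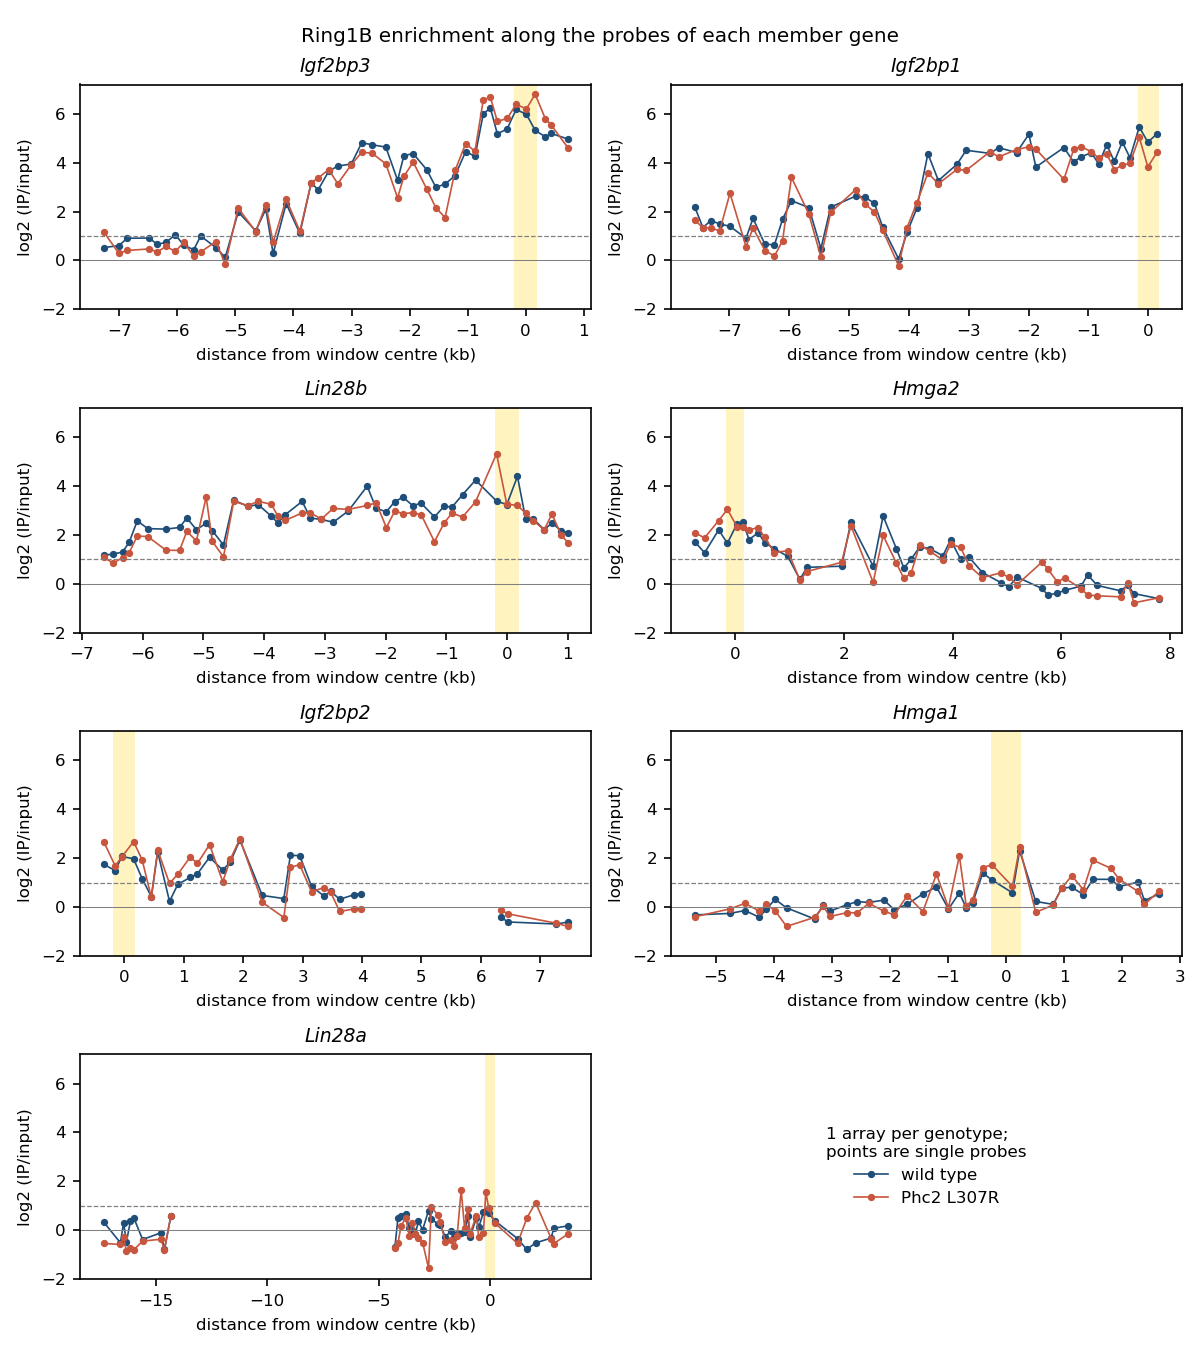
Log2 ratio of immunoprecipitate over input (y axis) at each probe of the 7 genes against the distance from the window centre in kb (x axis, rising coordinates to the right), with 1 array per genotype; shading marks the window and the dashed line the bound cut-off of 1. Igf2bp3, Igf2bp1 and Lin28b show kilobase-wide enrichment in both genotypes, Hmga2 and Igf2bp2 lower enrichment at the left end, and Lin28a values around 0.

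Enrichment at the top 3 genes was wide as well as high, as the probe profiles show. At Lin28b all 45 probes reached 1 in wild type, an unbroken run of 7701 bp that spanned the whole tile, the stretch of probes named for a gene. Only 17 of 17649 promoters had a longer run. In Phc2 L307R 44 of the 45 probes reached 1, in a run of 7391 bp. Igf2bp3 had a run of 4910 bp over 29 probes and Igf2bp1 a run of 4230 bp over 23 probes, and both were the same length in Phc2 L307R. Both runs were cut off at the last probe named for the gene, which was still enriched in both genotypes. Their lengths are thus lower bounds, and equal lengths do not show that the domains ended at the same place. The median over all promoters was 60 bp, the length of a single probe. Hmga2 had 1763 bp in both genotypes, starting at its first probe, so this too is a lower bound. Igf2bp2 had 888 bp in wild type and 1089 bp in Phc2 L307R, and Hmga1 362 bp and 497 bp. These runs of Igf2bp2 and Hmga1 lay at higher coordinates than the window and did not include it. Lin28a had 0 probes at 1 in wild type and 3 single probes in Phc2 L307R, all with input not well above background there.

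At a cut-off of 2 the longest runs were shorter in Phc2 L307R at Igf2bp3 and Lin28b. Their wild-type runs included the window and were cut off at the last probe, whereas their longest runs in Phc2 L307R did not include the window. The run at Igf2bp3 was 4478 bp in wild type and 2198 bp in Phc2 L307R, although 29 of 45 probes reached 2 in each. A probe that stood at 3.12 in wild type and 1.76 in Phc2 L307R broke it. From there to the last probe, window included, all probes again reached 2 in Phc2 L307R. At Lin28b 40 of 45 probes reached 2 in wild type and 32 in Phc2 L307R, with runs of 5561 bp and 3147 bp. The window of Lin28b lay in a separate, shorter run at 2 in Phc2 L307R. Igf2bp1 kept a run of 4067 bp, again cut off at its last probe, with 29 and 26 of 42 probes at 2. Hmga2 went the other way, from 160 bp to 778 bp.

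None of the 6 bound genes met the size rule for a difference, a window difference of at least 1 (a 2-fold change) with all 3 probes on the same side in a promoter bound in either genotype. Among 8998 promoters bound in either genotype, 3.02% were lower and 1.64% higher in Phc2 L307R by this rule. The window difference, Phc2 L307R minus wild type, was -0.73 at Igf2bp1 (SD over the 3 probes 0.30) and 0.64 at Igf2bp3 (SD 0.73). It was 0.36 at Hmga2 (SD 0.89), 0.34 at Hmga1 (SD 0.25), 0.30 at Igf2bp2 (SD 0.37), 0.30 at Lin28a (SD 0.45) and 0.25 at Lin28b (SD 1.57). Igf2bp1 and Hmga1 were the members whose difference was larger than its SD. Igf2bp1 met the size rule after normexp background correction (-1.04) and once all arrays had an equal spread (-1.24), while Hmga2 and Hmga1 turned to -0.58 and -0.70 after normexp. The median over the 7 genes was 0.30, which is the value of Lin28a, a gene bound in neither genotype. At 1 of its window probes input was not well above background in either genotype. With only probes well above background, in a window chosen anew, Lin28a differed by -0.04. Over the bound promoters the median was -0.14 and 61.9% lay below 0, where 1 of the 7 genes did. This contrast turned with the processing: after normexp the medians were -0.58 and -0.34, with 5 of the 7 genes below 0, and in the authors' value tables, described below, -0.48 and -0.19. With only probes well above background the median of the 7 was 0.03.

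Igf2bp3, Igf2bp1 and Lin28b were set beside promoters of like strength. At 341 promoters with a window of at least 3 in either genotype the median difference was -0.30, with quartiles of -0.84 and 0.31, and 17.3% were lower and 3.81% higher by the size rule. Igf2bp1 lay within the quartiles, with 95 of the 341 below it. Igf2bp3, at 0.64 as measured, had 303 of the 341 below it, and Lin28b at 0.25 lay within the quartiles. The difference at Igf2bp3 varied with the processing. Its difference was 0.60 with dim input raised to the lowest signal well above background and 0.43 in windows of 5 probes. It was 0.29 with only probes well above background, -0.07 after normexp and -0.73 in the value tables, which hold other wild-type values. Among the 575 promoters with a window of at least 3 in the value tables the quartiles were -1.92 and -0.96. Igf2bp3 thus lay above the upper quartile in both versions, and its place under the other settings was not worked out. Igf2bp3 and Igf2bp1 thus had opposite signs as measured, but both were below 0 after normexp and in the value tables, and both above 0 (0.64 and 0.11) where Phc2 L307R alone set the window. Whether Igf2bp3 and Igf2bp1 differ in their response was not tested, since there is 1 array per genotype and they lie on different designs.

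**Figure D2:**
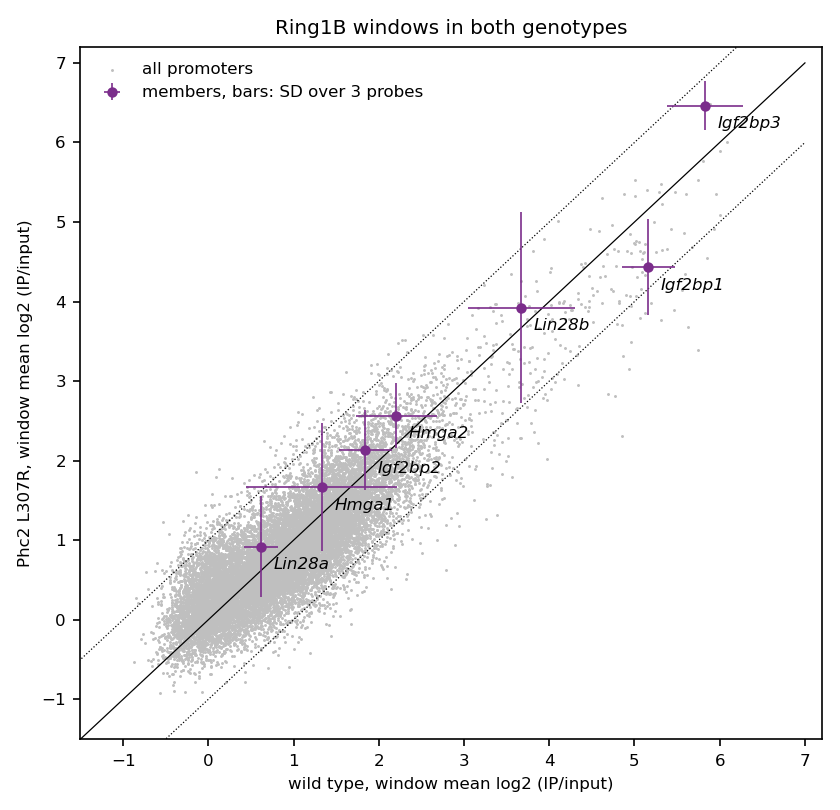
Window mean log2 ratio in Phc2 L307R (y axis) against wild type (x axis) for all 17649 promoters (grey) and the 7 genes (purple, bars are the SD over 3 probes); the solid line marks equality and dotted lines a difference of 1. Igf2bp3 stands at 5.83 and 6.46 in the upper right corner, and none of the 7 genes lies beyond a dotted line.

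The channels behind the ratio differed in ways the ratio does not show. At Igf2bp1 the immunoprecipitate signal, centred on its array's median, differed by -1.01 and the input by -0.32. The 3 probes read 53911, 21360 and 22884 intensity units for wild type, against 20529, 10142 and 13161 in Phc2 L307R. All 3 were thus dimmer in the Phc2 L307R immunoprecipitate, although the ratio differed by less than 1. At Igf2bp3 the immunoprecipitate differed by 0.16 and the input by -0.49. The probe with the difference of 1.48 had an input of 1123 in wild type and of 463 in Phc2 L307R, where it was not well above background. Without dim probes, in a window chosen anew, the difference at Igf2bp3 was 0.29.

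At Lin28b the immunoprecipitate differed by -0.05 and the input by -0.33, and at Hmga2 by 0.21 and -0.18. One Hmga2 probe, which read 1.66 and 3.04, had an input of 921 in wild type and of 418 in Phc2 L307R, not well above background there. The other 2 Hmga2 probes differed by -0.11 and -0.20. A window chosen anew from probes well above background, which took in another probe, differed by 0.03. Igf2bp2 had 0.33 in the immunoprecipitate and 0.01 in the input, and Hmga1 had 0.25 and -0.12, with input well above background at all 3 probes of both genes in both genotypes. Over the 341 strong promoters the medians were -0.32 for the immunoprecipitate and -0.12 for the input. The part of input signal in these differences was not tested further.

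**Figure D3:**
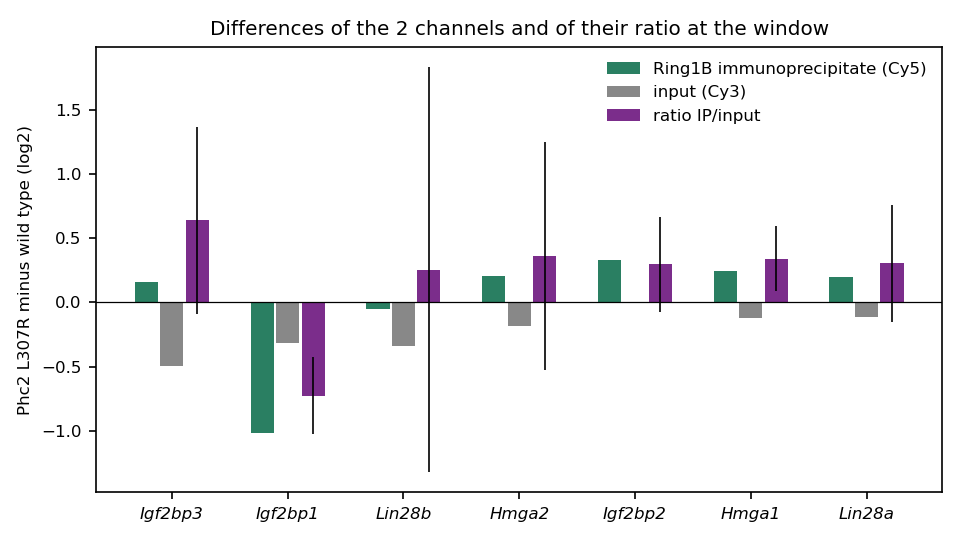
Phc2 L307R minus wild type (y axis, log2) at the window of each gene for the immunoprecipitate, the input and their ratio, each channel centred on its array median; bars are means over 3 probes and the lines on the ratio are the SD over those probes. Igf2bp1 has the lowest immunoprecipitate value, -1.01, while the ratio at Igf2bp3 goes with an input difference of -0.49.

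Along Igf2bp3 a stretch of lower probes lay next to a stretch of higher ones. From 3.24 kb to 1.39 kb below the window centre, 11 probes in a row were lower in Phc2 L307R, with a mean of 3.98 (SD 0.65) in wild type and 3.33 (SD 0.91) in Phc2 L307R, and differences from -1.37 to -0.03. The next 12 probes, from 1.21 kb below to 0.44 kb above the centre, were all higher, with means of 5.23 (SD 0.84) and 5.70 (SD 0.96) and differences from 0.20 to 1.48. Input was well above background in both genotypes at 9 of these 11 and at 9 of these 12 probes. The crest was thus higher and the shoulder beside it lower, and over all 45 probes the mean difference was -0.06 (SD 0.54). These stretches were picked for their signs, so their size is a description.

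Other genes also varied along their length. Lin28b was lower at 31 of 45 probes, with a mean difference over the tile of -0.22 (SD 0.57), and 10 probes in a row at its low-coordinate end averaged 1.96 in wild type, against 1.48 in Phc2 L307R. Igf2bp1 was lower at 29 of 42 probes with a tile mean of -0.20 (SD 0.52). With the tile cut into 3 equal lengths, Igf2bp2 was higher at 12 of 15 probes at the low-coordinate end, which holds its window, and lower at 9 of 10 in the middle, with means of 0.35 and -0.35. Hmga2 was higher at 9 of 14 probes at that end and lower at 11 of 14 in the middle, with means of 0.24 and -0.23. Hmga1 differed by a tile mean of 0.07 and Lin28a by -0.14. Across probes the genotypes had a Pearson r of 0.97 at Igf2bp3, 0.94 at Igf2bp1 and 0.25 at Lin28a, over 45, 42 and 43 probes that share their arrays.

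The deposited value tables give other wild-type levels for the same genes. The Phc2 L307R columns follow the scanner ratios (r of 0.999 on both designs) but the wild-type columns do so at only 0.854 on design 1 and 0.890 on design 2, and the array behind them is unknown. At the same windows the wild-type value was 7.18 at Igf2bp3, 6.43 at Igf2bp1 and 4.89 at Lin28b, which is 1.36, 1.27 and 1.22 above the scanner value. At Hmga1, Lin28a, Hmga2 and Igf2bp2 it was above by 0.51, 0.48, 0.34 and 0.20. All 7 were thus higher there, and most so at the 3 strong genes. Of bound promoters 53.4% were higher there, with windows chosen anew in the value tables, where all 7 genes were higher too. A like share for strong promoters alone was not worked out. Windows of at least 3 in either genotype numbered 575 in the value tables, against 341 in the scanner ratios. Their median difference was -1.51 in the value tables, against -0.30, so strong promoters in general differed between the versions.

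With those tables Igf2bp1 differed by -1.99 (SD 0.18) and Lin28b, in a window chosen anew, by -1.71 (SD 1.28), and both met the size rule for a lower level. That rule took 8.24% of bound promoters there, and 73.7% of the 575 promoters with a window of at least 3, while 0.585% of bound promoters and 0 of the 7 genes were higher. At the scanner's window Lin28b differed by -0.96. Igf2bp3 differed by -0.73, the opposite sign of the scanner values. Lin28b was lower at 45 of 45 probes, Igf2bp3 at 42 of 45 and Igf2bp1 at 38 of 42, whereas Igf2bp2 was higher at 20 of 29 and Hmga2 was lower at 21 of 41. Both stretches of Igf2bp3 were lower in Phc2 L307R there, by 1.47 at the shoulder and by 0.68 at the crest. The same Phc2 L307R arrays enter both versions, so they are no independent repeat.

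**Figure D4:**
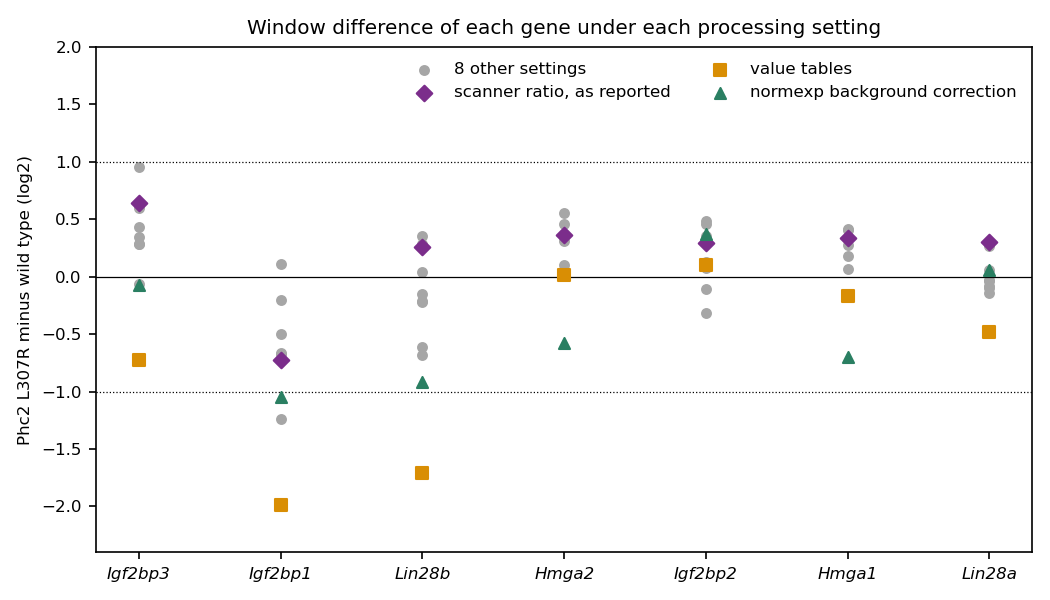
Window difference, Phc2 L307R minus wild type (y axis, log2), of each gene under the reported setting (diamonds), the value tables (squares), normexp background correction (triangles) and 8 other settings (grey); dotted lines mark a difference of 1. Igf2bp1 spans -1.99 to 0.11 and Igf2bp3 spans -0.73 to 0.96.

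Among the promoters nearest to Igf2bp3 in both genotypes, by the distance between the pairs of window values on design 1, were those of the developmental transcription factors Sox2, Lhx8 and Evx2, and of Shisa3. Sox2, a factor of pluripotent and neural cells, was closest at a distance of 0.07, with 5.89 (SD 0.05) in wild type and 6.49 (SD 0.04) in Phc2 L307R. Lhx8 followed at 0.70, with 5.81 and 5.77. Evx2 stood at 1.46 and D830007B15Rik, now Shisa3, at 1.55. Likeness here rests on 2 values per promoter.

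Genes of the let-7 route, other oncofetal genes, and other high mobility group and RNA-binding protein genes were described from lists of known members. Their counts are to be read against all promoters, of which 45.4% were bound in wild type and 39.3% in Phc2 L307R, and against bound promoters, of which 3.02% were lower and 1.64% higher by the size rule. Of 11 measured genes that process let-7 or its precursors, 6 were bound in wild type and 5 in Phc2 L307R, 0 met the size rule, and the median difference was -0.17. These counts lie near the shares over all promoters. Dicer1, the nuclease that cuts the precursor, had 2.16 (SD 0.82) and 1.64 (SD 0.71), and its partner gene Tarbp2 had 1.62 (SD 0.55) and 0.91 (SD 0.35). Hnrpa1, now Hnrnpa1, differed by -0.53, Khsrp by -0.20 and Ddx17 by -0.09. Dicer1 had the highest wild-type level of this list, so all 11 lay below Lin28b.

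Of 25 measured let-7 target genes, 19 were bound in wild type and 16 in Phc2 L307R (45.4% and 39.3% over all promoters), with a median of 1.48 in wild type and a median difference of -0.10. Ccnd2, the cyclin D2 gene, stood highest at 4.85 (SD 0.30) and was the only target past the size rule, at 3.70 (SD 0.38) in Phc2 L307R, a difference of -1.15 (SD 0.24). Igf1r, the receptor of Igf1 and Igf2, had 1.76 (SD 0.48) and 2.75 (SD 0.83), a difference of 0.99 that missed the rule. Thbs1, the thrombospondin gene, differed by 0.67 and Arid3a by -0.73. Over all 17649 promoters the medians were 0.90 in wild type and -0.05 for the difference.

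Among 13 other oncofetal genes measured, 10 were bound in each genotype (45.4% and 39.3% over all promoters), 2 were lower by the size rule and 0 higher (3.02% and 1.64% of bound promoters), and the median difference was 0.06. Sall4, a zinc finger factor of pluripotent and germ cells, went from 3.92 (SD 0.20) to 2.78 (SD 0.23), and Prom1, a membrane protein gene of stem cells, from 2.33 (SD 0.70) to 0.57 (SD 0.20). Igf2, whose mRNA the Igf2bp proteins bind, had the highest level of the list, 4.27 (SD 0.16) in wild type and 3.89 (SD 0.42) in Phc2 L307R. Tpbg, an oncofetal surface antigen gene, differed by 0.77 (SD 0.37) and Plac1, a placental gene, by 0.57 (SD 1.37). Neither met the rule.

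In wild type, other high mobility group genes and other RNA-binding protein genes held less Ring1B than Igf2bp3, Igf2bp1 and Lin28b. The high mobility group list had a wild-type median of 1.54, beside 1.33 at Hmga1 and 2.21 at Hmga2. Of 12 other high mobility group genes, 11 were bound in wild type and 7 in Phc2 L307R, where the share over all promoters also went from 45.4% to 39.3%; the highest, Hmgb2l1 (now Hmgxb4), stood at 2.09, and the median difference was -0.27. Hmgb3 and Nsbp1 (now Hmgn5) differed by 0.07 and 0.06, and A630042L21Rik (now Hmgxb3) and Hmgn2 by -0.78 and -0.46. Of 25 genes of other RNA-binding proteins with KH or cold shock domains, 20 were bound in each genotype, with Qk highest at 2.80 (SD 0.25) and a median difference of -0.09. Pcbp1 (0.99, SD 1.06) and Fmr1 (0.86, SD 0.41) had the highest differences, and Pcbp4 was among the lowest (-0.41, SD 0.16). Neither list had a gene past the size rule.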

How the data were processed

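Ring1B was measured in wild-type and Phc2 L307R fibroblasts on 4 two-channel arrays. The deposited scanner files hold intensity values quantified, per the file headers, with Agilent Feature Extraction 10.7.3.1 (background subtraction on negative controls, detrending, linear dye normalization). Per the file headers, each spot also has a log10 value of red (Cy5) over green (Cy3). The authors' deposited value tables proved to be log10 too when set against the scanner ratios. Their medians on designs 1 and 2 were -0.056 and -0.0615 for wild type, against -0.0342 and -0.0393 for Phc2 L307R; how they were centred, and the source of the wild-type columns, stays unknown. The sources used here do not give a genome build.

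Ratios were turned to log2 and centred on each array's median; controls and flagged outlier spots were dropped, which kept 282 of 284 probes of the 7 genes. Windows were 3 neighbouring probes within 2000 bp. With 1 array per genotype and design there is no test; the number of arrays limits the precision. Members and lists were chosen with earlier results of these data known. All 7 members are named, with the list members of lowest and highest difference, those past the size rule, and the 5 promoters nearest to Igf2bp3; the highest member of a list was named after its value was seen. Some genes that this rule names are not reported here. Of 17649 names, 16180 matched a current symbol or synonym in RefSeq tables (GRCm38.p6). The steps were tested on simulated data. The alternatives were normexp (offset 50), loess, equal spread, the deposited tables, leaving out dim probes, 5-probe windows, a window set by either genotype alone, averaging over every probe, a size rule of 1.5-fold and a bound cut-off of 3. Raising dim input signals was added after seeing the data. Python 3.11.15 (numpy 2.4.6, pandas 2.3.3, scipy 1.17.1, matplotlib 3.10.9) and R 4.3.3 with limma 3.58.1 were used.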

Additional observations from a re-analysis of the deposited data

How the results depend on the processing

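The number of genes lower in Phc2 L307R by the size rule was 0 as reported and 2 with the value tables. It was 1 after normexp and with arrays scaled to the same spread (Igf2bp1, -1.04 and -1.24). At a 1.5-fold rule Igf2bp1 (-0.73) was lower and Igf2bp3 (0.64, with dim input at 1 probe) higher. The share of all bound promoters called at the 1.5-fold rule was not worked out. Over all bound promoters the lower count was 272 of 8998 as reported, 198 of 4358 after normexp, 424 of 9074 at equal spread and 732 of 8885 with the value tables, so calls were more frequent there too. The median difference over the 7 genes was -0.58 after normexp and -0.48 with the value tables. Over all probes of a gene, 3 genes were bound in wild type and 4 in Phc2 L307R, where 1183 promoters were bound in either genotype. At a cut-off of 3 the count was 3 in each genotype, beside 1.58% of all promoters in wild type and 1.44% in Phc2 L307R. The sign at Igf2bp1 was negative in 9 of 10 alternatives and positive, at 0.11, where Phc2 L307R alone set the window; Igf2bp3 was positive in 7 of 10, Hmga2 in 9, Igf2bp2 and Hmga1 in 8, Lin28a in 4 and Lin28b in 3. Some alternatives kept the reported window, so these counts include repeats of the reported value, as at Igf2bp1 (-0.73) and Hmga1 (0.34). The cause of the changes between settings was not tested. No paired analysis was possible because the numbers in the titles name array designs that share 0 probes, and leaving out an array would leave a genotype without a value. Input near background limits the ratio at Lin28b most.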

Other observations

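Promoters of genes that mark cell types gave a view of Ring1B beyond the oncofetal genes. Of 9 measured fibroblast genes, 8 were bound in each genotype, with a median of 1.78 in wild type and a median difference of 0.27. Pdgfra, a growth factor receptor gene, and Vim, the vimentin gene, stood highest at 3.03 (SD 0.64) and 2.95 (SD 0.23) in wild type, and 3.11 (SD 0.40) and 2.67 (SD 0.65) in Phc2 L307R. Col1a2, a collagen gene, had 1.39 (SD 0.16) and 2.29 (SD 0.48). Of 4 measured blood cell genes 0 were bound, and of 5 endothelial genes 1 was bound, Tek at 1.18 (SD 0.31) and 1.05 (SD 0.52). Of 5 neural genes 4 were bound in each genotype, among them Sox2 (given above) and Pax6 at 4.19 (SD 1.14) and 3.79 (SD 0.80). No gene of these lists that was bound in either genotype met the size rule. Pecam1, an endothelial gene, differed by 1.17 (SD 0.59) but was bound in neither, at -0.44 and 0.73. Over all promoters 45.4% were bound in wild type and 39.3% in Phc2 L307R, and Ring1B at a promoter does not show whether the gene was expressed.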
